A study of Homo sapiens with 6 samples.

Results

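The genes described here encode the translation initiation factors (eIFs) and translation elongation factors (eEFs) of the human cytosol, and they were chosen by symbol alone, as every gene named EIF1 to EIF6 or EEF1 to EEF2 except the EIF2AK kinases, the EIF4EBP proteins and EIF4ENIF1. Of 17280 genes in the deposited table, 62 met that rule, 48 with EIF symbols and 14 with EEF symbols. The symbol also brings in enzymes that modify the factors (EEF1AKMT1 to EEF1AKMT4, EEF1AKNMT, EEF2K, EEF2KMT), EEF1E1, which belongs to the complex of aminoacyl-tRNA synthetases, and EIF1AD, a nuclear protein that shares a domain with eIF1A. RNA was sequenced from CAL-27, an established line of human tongue squamous carcinoma, cultured as spheres. The 3 control libraries are titled CON. The other 3 are titled LF3, after an inhibitor of the contact between beta-catenin and TCF4 that the series design says was given for 24 h, but their treatment field names elesclomol with copper instead. LF3 here means the libraries with that title, and which agent these cells received cannot be told apart from the labels. Values are TPM, an abundance that corrects for gene length and for the total of the library. It does not record how many reads were counted, so counting intervals cannot be given. Each gene is given by its 3 library values in the order of the replicate numbers. Changes are log2 fold changes of LF3 minus CON, taken from log2(TPM + 1), a scale that understates the change of low genes, ± the standard error, with adjusted p from limma with Benjamini-Hochberg adjustment over all 12195 tested genes and n = 3 in each group. "Rose", "fell", "higher" and "lower" are used of a change with adjusted p under 0.05.

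As background, translation starts when eIF2 carries initiator tRNA to the small ribosomal subunit, eIF1, eIF1A, eIF3 and eIF5 prepare that subunit for scanning, and the eIF4 group brings it to the capped end of an mRNA. eIF2B recharges eIF2 with GTP, and its block by phosphorylated eIF2 is how stressed cells slow initiation. During elongation eEF1A delivers aminoacyl-tRNA, the eEF1B subunits recharge eEF1A, and eEF2 moves the ribosome along the mRNA. Many mRNAs for ribosomal proteins and elongation factors begin with a terminal oligopyrimidine tract (TOP), a C followed by a run of C and T, through which the mTOR pathway sets their translation.

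The summed TPM of all genes with EIF symbols and that of the core elongation factor genes went different ways. The summed TPM of the genes with EIF symbols was 8341, 8399 and 8303 TPM in CON and 12371, 12346 and 12391 TPM in LF3, and that of the core elongation factors (EEF1A1, EEF1A2, EEF1B2, EEF1D, EEF1G and EEF2) was 13485, 13335 and 13728 TPM in CON and 10907, 10809.7 and 10665 TPM in LF3. Every LF3 library was thus above every CON library for initiation factors and below every one for elongation factors, with ratios of means of 1.48 and 0.799. Both sums gave a two-sided exact permutation p of 0.1, the smallest that 3 libraries against 3 allow, as did the sums of each of the 11 groups into which the factors were divided. In bulk RNA a change in the RNA of each cell and a change in the mix of cells cannot be told apart. After median-ratio scaling, which divides each library by the median ratio of its genes to their geometric means, the ratios were 1.23 and 0.660. EEF1A1 alone made up most of the elongation factor sum, and its direction turned with quantile normalization. The EIF sum includes EIF5A, which helps stalled ribosomes and had means of 388 TPM in CON and 1968 TPM in LF3. No sum without EIF5A was made. The share of all TPM taken by the 62 genes was 2.2% in CON and 2.34% in LF3, a ratio of 1.07 that turned to 0.883 after median-ratio scaling and was 1.24 without EEF1A1.

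Of the 62 genes, 58 had a mean of at least 1 TPM and were tested; 39 rose, 14 fell and 5 were not called. Over all tested genes 53.2% rose and 32.3% fell, so most of the transcriptome was called and a call by itself sets no gene apart. By the stricter rule of a call and at least a 2-fold difference, 22 factor genes were higher and 3 lower, where 20.8% and 11.1% of all tested genes were. That rule gave 13 higher and 5 lower after median-ratio scaling, where 14.0% and 15.3% of all tested genes were, and 13 and 5 after quantile normalization, where 14.7% and 14.2% were. CON and LF3 values lay wholly apart for 53 of the 58, against 86.2% of all tested genes. The median log2 fold change was 0.61 for the factor genes and 0.24 for all tested genes. Median-ratio scaling moved the median of all tested genes to -0.0055 and left 34 factor genes higher and 17 lower, where 42.6% and 42.7% of all genes were called. Quantile normalization gave 36 higher and 16 lower, where 43.9% and 41.4% of all genes were. The 4 untested genes, EIF1AY, EIF2S3B, EIF4E1B and EIF5AL1, averaged at most 0.568 TPM over the 6 libraries, and the lowest tested gene, EIF3CL, averaged 1.83 TPM.

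**Figure D1:**
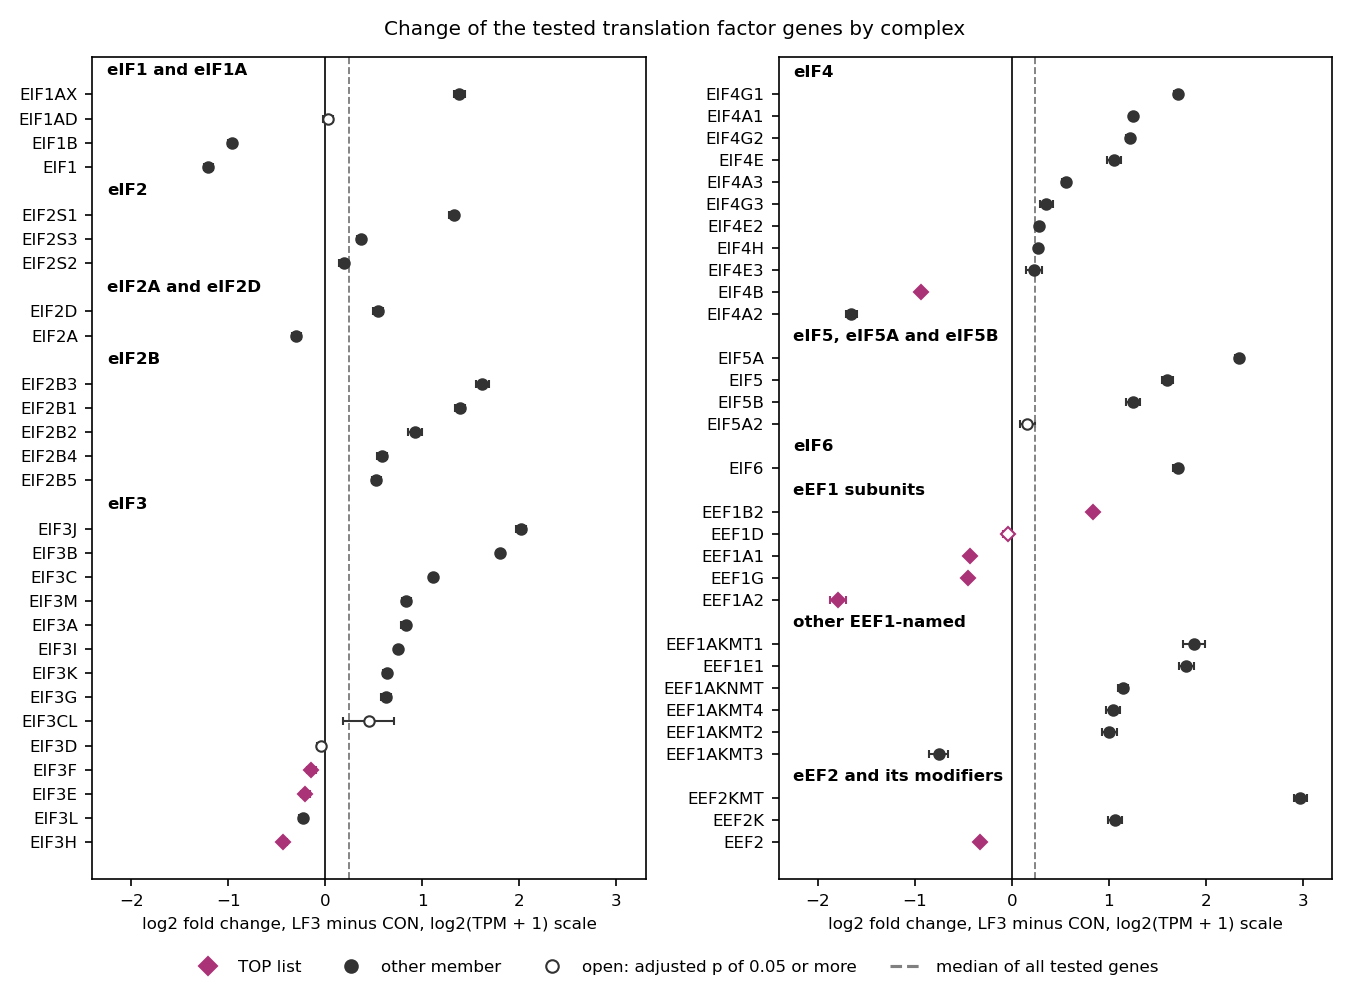
Log2 fold change of each of the 58 tested factor genes (x axis, LF3 minus CON, from log2(TPM + 1)) with its standard error, grouped by complex; diamonds mark the genes described as starting with an oligopyrimidine tract, open symbols were not called, and the dashed line is the median of all tested genes (0.24). Of the 10 diamonds, 8 lie below 0 and are filled, 1 (EEF1B2) lies above, and 1 (EEF1D) is open.

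Sequences at the annotated transcript starts are shown first, because the tract described above lies there. They are from the RefSeq promoter table of GRCh38.p14, matched by gene identifier for 50 of the 62 genes (no entry for EEF1A2, EEF1AKMT1, EEF1AKMT3, EEF1D, EEF2KMT, EIF2S2, EIF3A, EIF3CL, EIF3E, EIF3G, EIF3H and EIF3L). Each is 30 bases on the gene's strand, 10 before the annotated start and 20 from it, with the pyrimidine run that begins with a C at the start in capitals. The motif searched was a C at the annotated start followed by at least 4 bases that are C or T, on the gene's strand only, and a gene with several annotated starts counted if any had it. By the calls as deposited, it was present in 6 of the 9 genes that fell and had an entry, and in 5 of the 34 that rose and had one. Among all tested genes with an entry the share was 7.43%, with 9.5% among tested genes that fell and 6.45% among those that rose. Among cytosolic ribosomal protein genes, the best known carriers of this tract, it was 74.2% (46 of 62). An annotated start can lie some bases from the start used in these cells, so a match describes the annotation. Of the genes that fell with the tract, EEF1A1 was called higher after quantile normalization and EIF3F lost its call without LF3 replicate 1. EIF3D, which has the tract and was not called, was lower after both scalings. EEF1A1, EEF2, EIF4B and EIF3F are also in the literature's TOP list described below, so this count and that list overlap.

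The 6 genes that fell and whose annotated start carries the tract were:
EEF1A1: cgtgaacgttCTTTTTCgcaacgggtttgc
EEF2: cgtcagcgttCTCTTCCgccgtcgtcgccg
EIF4B: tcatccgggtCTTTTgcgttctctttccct
EIF4A2: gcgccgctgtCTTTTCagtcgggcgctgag
EIF3F: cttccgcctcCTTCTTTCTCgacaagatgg
EIF2A: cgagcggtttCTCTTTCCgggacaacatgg

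They lie at chr6:73521013-73521042 (reverse strand) for EEF1A1, chr19:3985444-3985473 (reverse strand) for EEF2, chr12:53006446-53006475 (forward strand) for EIF4B, chr3:186783567-186783596 (forward strand) for EIF4A2, chr11:7987327-7987356 (forward strand) for EIF3F and chr3:150546777-150546806 (forward strand) for EIF2A. EEF1A1 and EEF2 are elongation factors, EIF4A2 and EIF4B a helicase and its cofactor, EIF3F a subunit of eIF3 and EIF2A a carrier of initiator tRNA outside eIF2.

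The 5 genes that rose and whose annotated start carries the tract were:
EEF1B2: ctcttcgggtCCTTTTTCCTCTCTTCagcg
EIF2S3: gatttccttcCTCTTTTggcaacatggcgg
EIF2D: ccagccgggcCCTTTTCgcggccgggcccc
EIF3K: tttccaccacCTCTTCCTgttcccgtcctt
EIF3M: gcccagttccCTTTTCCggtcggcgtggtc

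They lie at chr2:206159885-206159914 (forward strand) for EEF1B2, chrX:24054946-24054975 (forward strand) for EIF2S3, chr1:206612446-206612475 (reverse strand) for EIF2D, chr19:38619178-38619207 (forward strand) for EIF3K and chr11:32583821-32583850 (forward strand) for EIF3M. EEF1B2 has the longest run printed here, 16 bases, at 1 of its annotated starts, and it was also the only gene of the literature's TOP list that rose as deposited. The tract was also present in EIF3D, which was not called, and in the untested EIF2S3B.

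For contrast, 3 genes whose annotated start does not carry the tract are EIF4A1 and EIF5A, which rose by at least 2-fold, and EEF1G, which fell:
EIF4A1: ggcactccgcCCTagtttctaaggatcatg
EIF5A: tgggaacccgaccacactagcgcgctagaa
EEF1G: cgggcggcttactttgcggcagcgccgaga

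They lie at chr17:7572815-7572844 (forward strand) for EIF4A1, chr17:7306989-7307018 (forward strand) for the first of the 6 starts listed for EIF5A, and chr11:62573872-62573901 (reverse strand) for EEF1G. A start only counts with a C at its first base, so EEF1G, which the literature lists as a TOP mRNA, was not matched at the annotated position.

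The list of factor mRNAs that the literature describes as TOP held 10 genes (EEF1A1, EEF1A2, EEF1B2, EEF1D, EEF1G, EEF2, EIF3E, EIF3F, EIF3H and EIF4B). It was drawn up with the fall of ribosomal protein genes in these samples already known, so its direction is no independent evidence. All 10 were tested, 1 rose and 8 fell, with a median log2 fold change of -0.38. The 48 other tested factor genes had 38 higher and 6 lower, with a median of 0.83. After median-ratio scaling the TOP list had 1 higher and 9 lower, and after quantile normalization 2 and 8. For comparison, the 77 cytosolic ribosomal protein genes had 1 higher and 73 lower with a median of -0.43, and the 20 cytosolic aminoacyl-tRNA synthetase genes, whose products load the tRNAs, had 18 higher and 2 lower with a median of 0.91. After median-ratio scaling the ribosomal protein genes had 0 higher and 77 lower and the synthetase genes 14 and 2; after quantile normalization the counts were 18 and 49, and 15 and 4. The medians of the TOP, ribosomal protein and synthetase lists were -0.31, -0.20 and 0.64 after quantile normalization. Of all tested genes, 53.2% were higher and 32.3% lower as deposited, with a median of 0.24. Those shares were 42.6% and 42.7% after median-ratio scaling, with a median of -0.0055. After quantile normalization they were 43.9% and 41.4%, with a median of 0.027. No test of one list against another was run.

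eIF2, the trimer that binds GTP and initiator tRNA, was higher in each of its subunits as deposited, but the sign of EIF2S2 turned with scaling. EIF2S1, the alpha subunit whose phosphorylation blocks eIF2B, stood at 43.8, 45.2 and 40.9 TPM in CON and 108, 111 and 110.4 TPM in LF3. All LF3 values of EIF2S1 were more than 2 times any CON value, and its log2 fold change was 1.32 ± 0.047 (adjusted p = 5.41e-10). EIF2S3, the gamma subunit that holds GTP and tRNA, stood at 169, 173 and 170.5 TPM in CON and 226, 228 and 209.9 TPM in LF3, with 0.37 ± 0.040 (adjusted p = 5.40e-06). EIF2S2, the beta subunit, stood at 204, 217 and 211 TPM in CON and 254, 243 and 225 TPM in LF3, with groups that just failed to overlap and 0.19 ± 0.048 (adjusted p = 0.00332); its sign turned to -0.084 after median-ratio scaling and -0.040 after quantile normalization, in both without a call. The alpha subunit's TPM was the lowest of the 3 in every CON and every LF3 library. The ratio of the highest to the lowest subunit was 4.66, 4.8 and 5.16 in CON against 2.36, 2.18 and 2.03 in LF3. EIF2A, which despite its symbol is not a subunit of eIF2 and can bring initiator tRNA without GTP, stood at 219, 233 and 212 TPM in CON and 184, 186 and 170.4 TPM in LF3 and fell by 0.30 ± 0.047 on the log2 scale (adjusted p = 1.30e-04). EIF2D, a factor of the same kind that also acts in ribosome recycling, stood at 30.4, 29.3 and 30.2 TPM in CON and 46.2, 44 and 42 TPM in LF3 and rose, with 0.54 ± 0.051 (adjusted p = 1.87e-06).

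eIF2B, the exchange factor that reloads eIF2 with GTP, rose in all 5 subunits, and no LF3 value overlapped a CON value. As deposited, 53.2% of all tested genes rose and 86.2% had groups that did not overlap. Its summed TPM was 119, 116 and 117 TPM in CON and 239, 228 and 232 TPM in LF3, a ratio of means of 1.99 as deposited and 1.64 after median-ratio scaling. EIF2B3, the gamma subunit, had the largest change at 18, 17.8 and 15.5 TPM in CON and 55.8, 51.1 and 56.1 TPM in LF3, giving a log2 fold change of 1.62 ± 0.067 (adjusted p = 1.88e-09). EIF2B1, the alpha subunit that holds the symmetric decamer together and senses phosphorylated eIF2, stood at 22.9, 20.9 and 21.4 TPM in CON and 58.8, 57.5 and 58.6 TPM in LF3, with 1.38 ± 0.051 (adjusted p = 7.00e-10). The beta subunit gene EIF2B2 was the lowest of the 5 in every library, at 8.93, 7.73 and 8.31 TPM in CON and 17.7, 16.1 and 16.2 TPM in LF3, with 0.92 ± 0.073 (adjusted p = 3.74e-07). The smallest changes were those of the delta subunit gene EIF2B4 and of EIF2B5, the catalytic epsilon subunit, at 0.59 ± 0.053 and 0.52 ± 0.045. EIF2B4 stood at 31.7, 31 and 31.1 TPM in CON and 50.7, 46.2 and 45.6 TPM in LF3, and EIF2B5 at 37.7, 38.5 and 40.3 TPM in CON and 56.2, 57.1 and 55.5 TPM in LF3. The order of the subunits changed with it, since EIF2B5 was the highest of the 5 in every CON library and EIF2B1 in every LF3 library. The median log2 fold change of eIF2B was 0.92, 0.67 after median-ratio scaling and 0.65 after quantile normalization, with 5 of 5 higher in each.

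The genes that sense and reset the state of eIF2 were split. Of the 4 kinases that phosphorylate eIF2 alpha, EIF2AK4 (GCN2, which answers to lack of amino acids) and EIF2AK2 (PKR, which answers to double-stranded RNA) rose, with 0.70 ± 0.058 and 0.50 ± 0.070. EIF2AK3 (PERK, the kinase of the endoplasmic reticulum) and EIF2AK1 (the heme-regulated kinase) fell, with -0.92 ± 0.058 and -0.32 ± 0.044. The regulatory subunits of the phosphatase that removes the mark both fell: PPP1R15A (GADD34), induced by stress, stood at 151, 147 and 163 TPM in CON and 80.9, 83.9 and 88.5 TPM in LF3, and PPP1R15B, the constitutive form, at 68.7, 72.1 and 65.1 TPM in CON and 32.3, 31.4 and 27.2 TPM in LF3. Their log2 fold changes were -0.85 ± 0.050 and -1.16 ± 0.068. The list thus had 2 of 6 tested genes higher and 4 lower, with the same counts after both scalings. Of all tested genes, 53.2% were higher and 32.3% lower as deposited. These shares were 42.6% and 42.7% after median-ratio scaling, and 43.9% and 41.4% after quantile normalization.

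Of the small factors that decide which start codon is accepted, eIF1 and eIF1A moved in opposite directions. EIF1, which opposes the use of poor start sites, stood at 929.5, 957 and 899.6 TPM in CON and 383, 396 and 429.7 TPM in LF3, giving a log2 fold change of -1.20 ± 0.044 (adjusted p = 7.01e-10). Its close paralog EIF1B stood at 71.7, 71 and 71.7 TPM in CON and 36.2, 36.5 and 36 TPM in LF3, with -0.96 ± 0.041 (adjusted p = 2.25e-09). For both genes every LF3 value lay below every CON value, where the groups lay apart for 86.2% of all tested genes. EIF1AX, which encodes eIF1A, stood at 25.6, 27.3 and 23.8 TPM in CON and 67, 71.9 and 65.5 TPM in LF3 and rose by 1.38 ± 0.060 (adjusted p = 2.64e-09). EIF1AD, the nuclear relative, stood at 38.9, 42.1 and 39.4 TPM in CON and 41.2, 39.2 and 42.3 TPM in LF3 with overlapping groups and 0.027 ± 0.052 (adjusted p = 0.632), a 95% interval of -0.088 to 0.14; it was called lower at -0.24 after median-ratio scaling and -0.34 after quantile normalization. EIF5, the GTPase activator of eIF2 that competes with eIF1 on the scanning ribosome, rose, at 24.8, 25.4 and 21.9 TPM in CON and 74.9, 77.8 and 72.3 TPM in LF3, with 1.60 ± 0.061 (adjusted p = 9.21e-10). The ratio of EIF5 to EIF1 TPM was 0.0266, 0.0266 and 0.0244 in CON and 0.196, 0.196 and 0.168 in LF3, so that every LF3 library had a higher ratio than every CON library, a comparison chosen after the values were seen.

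eIF3, the largest initiation factor, did not move as a unit. Of its 14 genes in the table, all tested, 8 rose, 4 fell and 2 were not called. The counts were 8 and 5 after median-ratio scaling and 8 and 5 after quantile normalization. The share that rose was 57.1% in each setting, beside 53.2%, 42.6% and 43.9% of all tested genes. EIF3A, EIF3B and EIF3C all rose. EIF3B stood at 198, 198 and 201 TPM in CON and 671, 692 and 723 TPM in LF3, with 1.80 ± 0.035 (adjusted p = 8.79e-12). EIF3C stood at 239, 237 and 252 TPM in CON and 514, 525 and 539 TPM in LF3 and EIF3A, the large scaffold subunit, at 90.4, 86.2 and 86.5 TPM in CON and 163, 162 and 145 TPM in LF3, with 1.11 ± 0.036 and 0.83 ± 0.050. Most 50-base windows of the annotated EIF3C transcripts (77.7%) also occur in its near-copy EIF3CL, so the split between these genes is uncertain; EIF3CL stood at 0.47, 1.72 and 2.1 TPM in CON and 3.2, 1.87 and 1.61 TPM in LF3 with 0.45 ± 0.26 (adjusted p = 0.131) and a 95% interval of -0.13 to 1.03, and it was called without CON replicate 3 (adjusted p = 0.0471). The largest change in the complex was that of EIF3J, a loosely bound subunit that helps to place and release mRNA, at 21.8, 21.9 and 20.3 TPM in CON and 91.4, 92.4 and 85.5 TPM in LF3, with 2.02 ± 0.052 (adjusted p = 5.38e-11). EIF3I and EIF3G, partners of EIF3B, rose by 0.75 ± 0.032 and 0.63 ± 0.049, EIF3M by 0.84 ± 0.043 and EIF3K by 0.64 ± 0.038.

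Among the eIF3 genes that fell, 3 of 4 stand in the TOP list, which was drawn up with the fall of ribosomal protein genes known. Off that list, EIF3K and EIF3M, which rose, and EIF3D, which was not called, carry the tract at their annotated start. The listed EIF3E and EIF3H had no promoter entry. EIF3H stood at 178, 183 and 174 TPM in CON and 132, 136 and 128 TPM in LF3, with -0.43 ± 0.039 (adjusted p = 1.13e-06). EIF3E, a subunit that meets eIF4G, stood at 421, 446 and 406 TPM in CON and 379.9, 383 and 343 TPM in LF3 with -0.20 ± 0.050 (adjusted p = 0.00266), and EIF3F, the scarcest subunit gene in LF3, at 56.1, 54.4 and 56.2 TPM in CON and 48.9, 52.2 and 49.6 TPM in LF3 with -0.14 ± 0.045 (adjusted p = 0.0117). The call of EIF3F was lost without LF3 replicate 1 (adjusted p = 0.0524). EIF3L, which binds EIF3K at the edge of the complex, stood at 354, 341 and 358 TPM in CON and 308, 296 and 292 TPM in LF3, with -0.23 ± 0.035 (adjusted p = 8.85e-05). In all 4 the lowest CON value exceeded the highest LF3 value, where the groups lay apart for 86.2% of all tested genes. EIF3D, a subunit that can bind the mRNA cap itself, stood at 330.5, 320.0 and 334 TPM in CON and 305, 318 and 330.2 TPM in LF3 with -0.046 ± 0.037 (adjusted p = 0.270) and a 95% interval of -0.13 to 0.037, and it was called lower once scaled by median ratios (-0.32) and quantile normalization (-0.26). Leaving out EIF3CL, the TPM of the 13 subunit genes ran from EIF3J at 20.3 to 21.9 up to 408 to 446 in CON, and from EIF3F at 48.9 to 52.2 up to EIF3B at 671 to 723 in LF3. The ratio of EIF3B to EIF3E TPM, a pair picked after the values were seen, was 0.471, 0.443 and 0.495 in CON and 1.77, 1.81 and 2.11 in LF3. The summed TPM of eIF3 was 2967, 2979 and 3003 TPM in CON and 4415, 4414 and 4432 TPM in LF3, a ratio of means of 1.48 (1.23 after median-ratio scaling).

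**Figure D2:**
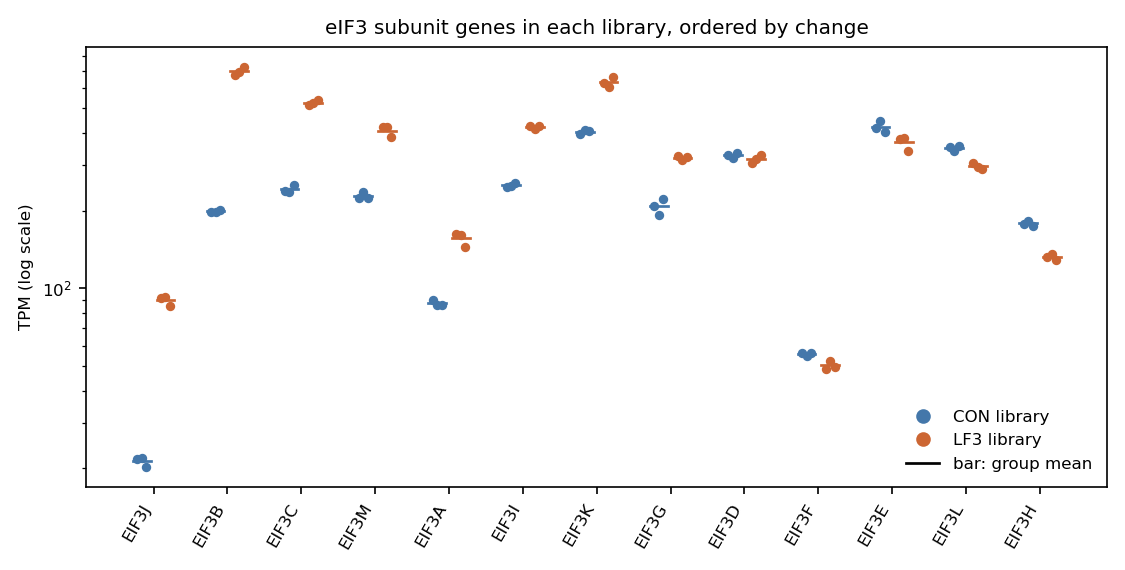
TPM (y axis, log scale) of 13 eIF3 subunit genes in each of the 3 CON and 3 LF3 libraries, ordered by log2 fold change, with bars at the group means. The 8 genes on the left are higher in every LF3 library, EIF3D overlaps, and the 4 on the right are lower in every LF3 library.

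In the eIF4 group, which recognises the cap and unwinds the leader of the mRNA, 9 of the 11 tested genes rose and 2 fell. The counts were 5 and 2 after median-ratio scaling and 6 and 2 after quantile normalization. Of all tested genes, 53.2% rose as deposited, 42.6% after median-ratio scaling and 43.9% after quantile normalization. The eIF4 median was 0.36, 0.093 and 0.13 in these settings, close to the 0.24, -0.0055 and 0.027 of all tested genes. The helicase paralogs of the group exchanged rank. EIF4A1, the main helicase of initiation, stood at 565, 576 and 560.0 TPM in CON and 1341, 1348 and 1354 TPM in LF3, giving a log2 fold change of 1.25 ± 0.027 (adjusted p = 1.95e-11). EIF4A2 stood at 695, 716 and 658 TPM in CON and 231, 226 and 199 TPM in LF3, with -1.65 ± 0.056 (adjusted p = 3.86e-10), the largest fall of any initiation factor gene. The ratio of EIF4A1 to EIF4A2 TPM was 0.813, 0.805 and 0.852 in CON and 5.79, 5.96 and 6.81 in LF3, so EIF4A2 was the more abundant in every CON library and EIF4A1 in every LF3 library. Their annotated transcripts share no window of 50 bases, the read length, so a read that matches one without mismatch does not match the other. Of the windows of EIF4A1, 55% also occur in another annotated gene, mostly a read-through transcript of the same locus. EIF4A3, the paralog that serves in the exon junction complex rather than in initiation, stood at 116, 113 and 117 TPM in CON and 179.7, 168 and 165 TPM in LF3, with 0.56 ± 0.042 (adjusted p = 2.31e-07).

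The cofactors that stimulate the helicase also parted. EIF4B stood at 536, 534 and 534 TPM in CON and 285, 282 and 271 TPM in LF3, with -0.93 ± 0.032 (adjusted p = 4.39e-10), and EIF4H at 486, 467 and 486 TPM in CON and 568, 579 and 589 TPM in LF3, with 0.27 ± 0.031 (adjusted p = 1.04e-05). The fall of EIF4B held after both scalings (-1.21 and -1.16), while EIF4H turned to -0.0035 without a call after median-ratio scaling and had 0.070 after quantile normalization. EIF4A1 and EIF4B stood nearly level in CON, and their TPM ratio was 1.05, 1.08 and 1.05 in CON and 4.7, 4.78 and 5.0 in LF3. Here too every LF3 library was above every CON library.

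The scaffolds of the cap complex rose as deposited, EIF4G3 without a call after either scaling. EIF4G1, which bridges the cap-binding protein, the helicase and eIF3, stood at 129.8, 127 and 136 TPM in CON and 433, 437 and 423 TPM in LF3, with 1.71 ± 0.036 (adjusted p = 1.53e-11). EIF4G2 (DAP5), a shorter relative that lacks the site for the cap-binding protein, stood at 228, 239 and 226 TPM in CON and 538, 557 and 519.5 TPM in LF3, with 1.22 ± 0.038 (adjusted p = 2.14e-10). EIF4G3 stood at 26.7, 25.6 and 26.2 TPM in CON and 36.7, 35.2 and 30.01 TPM in LF3; its rise of 0.36 ± 0.071 (adjusted p = 7.07e-04) lost its call after median-ratio scaling (0.093) and quantile normalization (0.013). The cap-binding protein gene EIF4E stood at 29.2, 28 and 23.6 TPM in CON and 56.8, 58.5 and 54.7 TPM in LF3, with 1.05 ± 0.073 (adjusted p = 1.31e-07). In each library EIF4E TPM was below that of its relative EIF4E2 (4EHP), which binds the cap and represses translation. EIF4E2 stood at 109, 103 and 113 TPM in CON and 127, 137 and 131 TPM in LF3, with 0.28 ± 0.045 (adjusted p = 1.46e-04), and it lost its call after both scalings, at 0.0082 after median-ratio scaling and with a negative sign after quantile normalization (-0.028). EIF4E3, an atypical and scarce relative, stood at 4.91, 4.8 and 5.14 TPM in CON and 5.63, 6.55 and 5.75 TPM in LF3 with 0.23 ± 0.082 (adjusted p = 0.0237). EIF4E3 lost its call, at -0.0037 after median-ratio scaling and 0.13 after quantile normalization, and also without CON replicate 1 (adjusted p = 0.0592), CON replicate 2 (adjusted p = 0.0686) or LF3 replicate 2 (adjusted p = 0.107).

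EIF4E and EIF4G1, picked from the 12 factor genes with the hexamer CACGTG, both rose and carry it in 2 places in a promoter entry. For EIF4G1 this holds at the first listed of its annotated starts and not at the others. The following 30-base windows show these sites in capitals, at the stated number of bases before the annotated start:
EIF4E, 72 bases before the start: ggacatatccgtCACGTGgccagaagctgg
EIF4E, 225 bases before the start: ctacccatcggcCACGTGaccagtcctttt
EIF4G1, 144 bases before the start: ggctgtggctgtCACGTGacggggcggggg
EIF4G1, 67 bases before the start: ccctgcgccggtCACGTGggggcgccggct

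The EIF4E windows lie at chr4:98929188-98929217 and chr4:98929341-98929370 on the reverse strand and the EIF4G1 windows at chr3:184314450-184314479 and chr3:184314527-184314556 on the forward strand of GRCh38.p14. CACGTG reads the same on both strands and is the E-box that MYC with MAX, among other factors, can bind. Over the whole 300-base promoter entry it was present in 12 of the 50 factor genes with an entry, 8 of 34 that rose and 3 of 9 that fell, and in 12.7% of all tested genes with an entry (14% of those that rose and 11.4% of those that fell). The genes that fell with it were EIF1B, EIF3F and EIF4B. EEF1AKMT4, which rose, and EIF5A2, which was not called, also carry it more than once. A match describes the letters only.

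**Figure D3:**
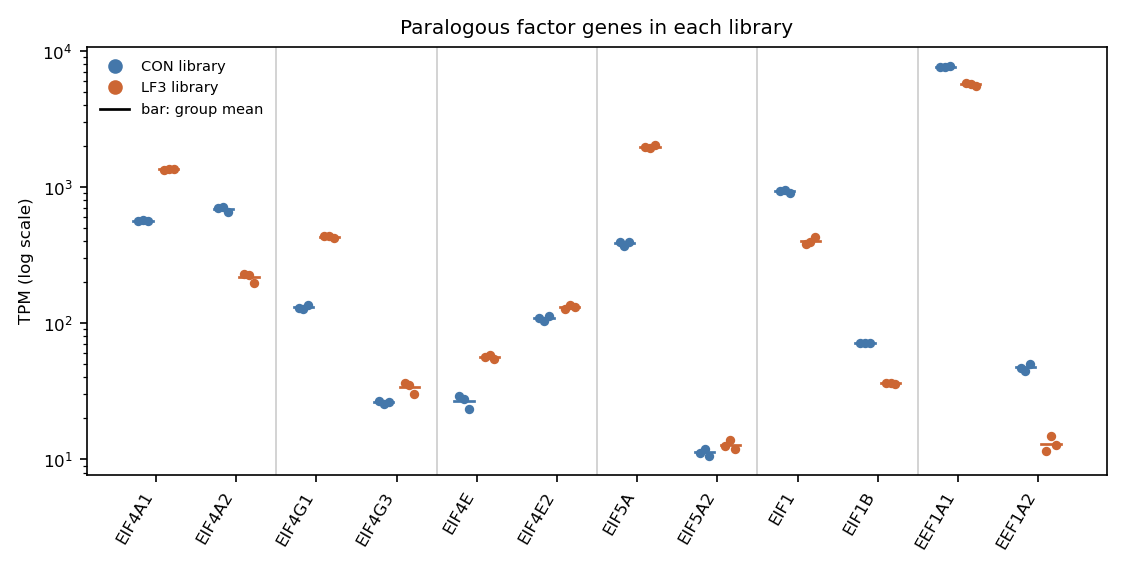
TPM (y axis, log scale) of 6 pairs of related factor genes in each CON and LF3 library, with bars at the group means. EIF4A1 and EIF4A2 exchange rank between the groups, EIF5A rises while EIF5A2 overlaps, and both members of the EIF1 and EEF1A pairs are lower in every LF3 library.

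Of the factors that act in later steps, EIF5, EIF5A, EIF5B and EIF6 rose and EIF5A2 was not called. EIF5A, the hypusine-bearing protein that helps ribosomes through stalling sequences and in termination, had the largest change of any gene with an EIF symbol. It stood at 397, 371 and 396 TPM in CON and 1960.4, 1917 and 2028 TPM in LF3. Its ratio of means was 5.07 and its log2 fold change 2.34 ± 0.036 (adjusted p = 2.19e-12), higher than that of 98.3% of all tested genes. In the annotated transcripts, 19.2% of its 50-base windows also occur in the near-copy EIF5AL1, which stood at 0.11, 0.14 and 0.090 TPM in CON and 0.23, 0.22 and 0.26 TPM in LF3. The paralog EIF5A2 was scarce, at 11.2, 12 and 10.7 TPM in CON and 12.5, 13.9 and 11.9 TPM in LF3, with 0.16 ± 0.076 (adjusted p = 0.0683) and a 95% interval of -0.0076 to 0.33; the sign of EIF5A2 turned after median-ratio scaling (-0.091) and quantile normalization (-0.14), both without a call. EIF5A2 was called without CON replicate 2 (adjusted p = 0.0458) and likewise when LF3 replicate 3 was left out (adjusted p = 0.0314). EIF5B, the GTPase that joins the ribosomal subunits, stood at 29.4, 30.3 and 28.5 TPM in CON and 76.2, 75.4 and 62.9 TPM in LF3, with 1.25 ± 0.071 (adjusted p = 2.42e-08). EIF6, which keeps the large subunit from joining too early and acts in its assembly, stood at 134, 135 and 143 TPM in CON and 445, 429.7 and 479 TPM in LF3, with 1.71 ± 0.045 (adjusted p = 7.07e-11). The LF3 libraries were above all CON libraries for EIF5A, EIF5B and EIF6, where the groups lay apart for 86.2% of all tested genes.

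The enzymes that make hypusine on eIF5A moved apart. DOHH, which completes the modification, rose, with 7.88 ± 0.397 TPM in CON and 23.7 ± 1.53 TPM in LF3 (SD, n = 3) and 1.47 ± 0.070 (adjusted p = 5.16e-09). DHPS, which carries out its first step, fell, with 80.8 ± 2.08 TPM in CON and 57.3 ± 4.09 TPM in LF3 (SD, n = 3) and -0.49 ± 0.054 (adjusted p = 6.61e-06).

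Of the core elongation factor genes, EEF1A1, EEF1A2, EEF1G and EEF2 fell as deposited, EEF1B2 rose and EEF1D was not called. EEF1A1, EEF1G and EEF2 had the 3 highest TPM values of the 62 genes in every CON library, while in LF3 EIF5A stood above EEF1G and EEF2. EEF1A1, which delivers aminoacyl-tRNA, had the highest TPM of all 62 genes in every library, at 7619, 7585 and 7664 TPM in CON and 5769, 5726 and 5532 TPM in LF3. It fell as deposited, with -0.43 ± 0.026 (adjusted p = 3.78e-08), and after median-ratio scaling (-0.70), but was called higher after quantile normalization (0.11, adjusted p = 0.0107), so its direction depends on the scaling. Its annotated transcripts share 22.1% of their 50-base windows with other annotated genes, 28 in number. EEF1A2, the form known from muscle and neurons and raised in some tumours, shares no such window with EEF1A1. EEF1A2 stood at 46.7, 44.8 and 50.4 TPM in CON and 11.6, 14.9 and 12.7 TPM in LF3, with -1.79 ± 0.084 (adjusted p = 5.10e-09), the largest fall among the 58 genes under all 3 scalings (-2.05 and -2.12 after the other two). The ratio of EEF1A1 to EEF1A2 TPM was 163, 169 and 152 in CON and 499, 385 and 436 in LF3.

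The subunits of eEF1B, which recharge eEF1A with GTP, did not keep together. EEF1G, the structural subunit, stood at 2569, 2546 and 2638 TPM in CON and 1911, 1866 and 1888 TPM in LF3, with -0.45 ± 0.027 (adjusted p = 3.33e-08). Nearly all of its windows (98.7%) also occur in another annotated gene, mostly a read-through transcript of the locus, so its level is uncertain. EEF1D, an exchange subunit, stood at 583, 534 and 602 TPM in CON and 544, 565 and 560.0 TPM in LF3 with overlapping groups, -0.041 ± 0.044 (adjusted p = 0.390) and a 95% interval of -0.14 to 0.056; it was called lower once scaled by median ratios (-0.31), after quantile normalization (-0.24) and without CON replicate 2 (-0.091, adjusted p = 0.0356). EEF1B2, the other exchange subunit, went up, at 534, 516 and 508 TPM in CON and 919, 939.9 and 929 TPM in LF3, with 0.84 ± 0.030 (adjusted p = 6.36e-10), and it was also higher after median-ratio scaling (0.56) and quantile normalization (0.81). EEF1D was above EEF1B2 in all CON libraries, and EEF1B2 was above EEF1D in all LF3 libraries. The windows of EEF1B2 are shared to 40.6% with other annotated genes, mostly with EEF1B2P3. EEF2, the translocase, stood at 2133, 2109 and 2265 TPM in CON and 1753, 1697 and 1744 TPM in LF3, with -0.32 ± 0.033 (adjusted p = 3.16e-06), and stayed lower after median-ratio scaling (-0.60) and quantile normalization (-0.12). The ratio of EEF1A1 to EEF2 TPM was slightly lower in LF3 with groups that nearly touched, at 3.57, 3.6 and 3.38 in CON and 3.29, 3.37 and 3.17 in LF3.

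**Figure D4:**
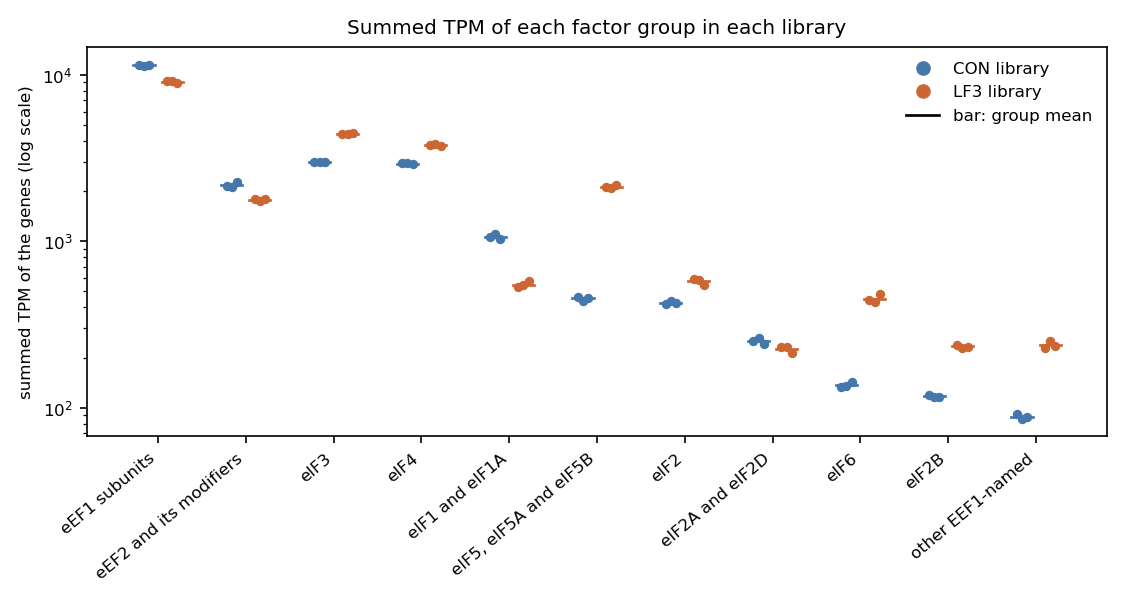
Summed TPM (y axis, log scale) of the genes of each factor group in each CON and LF3 library, with bars at the group means. The eEF1 and eEF2 groups, the eIF1 group and the pair EIF2A and EIF2D are lower in every LF3 library, and the other groups are higher.

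The genes of enzymes that act on the elongation factors mostly rose, where 53.2% of all tested genes rose as deposited. EEF2KMT, the methyltransferase of eEF2, had the largest rise of all 58 genes, at 3.22, 2.9 and 3.18 TPM in CON and 31.3, 31.6 and 30.6 TPM in LF3. Its ratio of means was 10.05 and its log2 fold change 2.97 ± 0.066 (adjusted p = 2.14e-11), above that of 99.6% of tested genes; 31.6% of its 50-base windows are shared with other annotated genes, among them relatives of the FAM86 family. EEF2K, the kinase that halts eEF2, stood at 6.43, 6.44 and 6.27 TPM in CON and 14.2, 15.7 and 13.6 TPM in LF3, with 1.07 ± 0.072 (adjusted p = 9.99e-08). Of the 5 methyltransferases of eEF1A, 4 rose. EEF1AKMT1 stood at 1.81, 1.34 and 1.86 TPM in CON and 8.03, 10.3 and 8.13 TPM in LF3 with 1.88 ± 0.12, and EEF1AKNMT (METTL13) at 16.5, 16.2 and 17.2 TPM in CON and 38.5, 37.9 and 38 TPM in LF3 with 1.15 ± 0.051. EEF1AKMT4 and EEF1AKMT2 had 1.04 ± 0.071 and 1.01 ± 0.075. EEF1AKMT3 fell, at 8.04, 8.34 and 10.2 TPM in CON and 4.49, 5.0 and 4.95 TPM in LF3, with -0.75 ± 0.094 (adjusted p = 1.86e-05). EEF1E1, of the aminoacyl-tRNA synthetase complex, stood at 44.1, 37.6 and 35.6 TPM in CON and 128, 151 and 136 TPM in LF3, with 1.80 ± 0.080 (adjusted p = 3.03e-09). All of these kept direction and call after both scalings. Of all tested genes, 42.6% were higher after median-ratio scaling and 43.9% after quantile normalization.

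Diphthamide, the modified histidine of eEF2 that diphtheria toxin attacks, is built by 7 listed enzymes and helpers. Of these, 5 rose, 1 fell and 1 was not called (5 and 2 after either scaling), where 53.2% of all tested genes rose as deposited. DPH2 rose most, at 9.39, 9.35 and 10.7 TPM in CON and 49.3, 45.8 and 44.8 TPM in LF3, with 2.14 ± 0.068 (adjusted p = 2.50e-10). DPH1, DPH6 and DPH3 had 1.71 ± 0.073, 1.45 ± 0.11 and 1.41 ± 0.096. DNAJC24 fell, with -0.34 ± 0.064 (adjusted p = 4.79e-04).

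The controls of cap binding outside the factor symbols were likewise mostly higher. Of 11 tested genes 8 were higher and 3 lower (7 and 3 after either scaling), where 53.2% of all tested genes rose as deposited. MTOR, the kinase that releases eIF4E from its inhibitors, stood at 7.85, 8.45 and 8.22 TPM in CON and 38.1, 36.3 and 34.5 TPM in LF3, with 2.02 ± 0.062 (adjusted p = 1.87e-10). LARP1, which binds the TOP tract when mTOR is inactive, stood at 36, 36.5 and 36.2 TPM in CON and 112, 115 and 110.2 TPM in LF3, with 1.60 ± 0.040 (adjusted p = 4.60e-11). The largest fall was that of MKNK2, a kinase that phosphorylates eIF4E, at 255, 259 and 278 TPM in CON and 55.2, 51 and 52.5 TPM in LF3, with -2.30 ± 0.047 (adjusted p = 1.15e-11). PDCD4, an inhibitor of the EIF4A helicase, and EIF4EBP1, the best known inhibitor of eIF4E, fell by 0.96 ± 0.083 and 0.41 ± 0.064 on the log2 scale, whereas EIF4EBP2 had 0.72 ± 0.050. EIF4EBP3 lay under the filter.

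Of the 5 genes of poly(A) binding, PABPC1, the main cytosolic poly(A)-binding protein and itself encoded by a TOP mRNA, fell, at 1257, 1273 and 1236 TPM in CON and 827, 859.9 and 815 TPM in LF3, with -0.59 ± 0.030 (adjusted p = 1.08e-08). PABPC4 and PAIP1 rose, with 0.46 ± 0.042 and 0.65 ± 0.052, PAIP2B had the largest fall (-1.38 ± 0.080), and PAIP2 was not called, with 0.053 ± 0.040 (adjusted p = 0.234), but was called lower once scaled by median ratios (-0.22). Of 7 helpers of initiation and recycling, 6 rose and 0 fell as deposited, where 53.2% of all tested genes rose. The ribosome-splitting ATPase ABCE1 had the largest rise, at 16.6, 19.8 and 16.2 TPM in CON and 79.2, 76.6 and 72.3 TPM in LF3, with 2.06 ± 0.074 (adjusted p = 6.17e-10). The one that was not called, BZW1, had -0.075 ± 0.047 (adjusted p = 0.155) and was called lower once scaled by median ratios (-0.35). Both tested release factor genes rose, ETF1 (eRF1) by 1.40 ± 0.039 and GSPT1 (eRF3) by 1.65 ± 0.045; GSPT2 lay under the filter.

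Across all tested genes the Pearson correlation of log2(TPM + 1) was 0.996 to 0.997 between libraries of a group and 0.863 to 0.867 between groups; genes are not independent replicates. The labels do not state whether replicates are separate cultures, and the p-values therefore cover only variation among these libraries, which may be technical. The cell line was checked against 8 squamous epithelial markers, whose summed level was 1187 to 1211 TPM in CON and 1692 to 1725 TPM in LF3. Of these, 7 were tested, 5 rose and 1 fell (3 and 3 after median-ratio scaling, 2 and 4 after quantile normalization), and KRT14 lay under 1 TPM in every library. The shares of all tested genes were 53.2% higher and 32.3% lower as deposited. They were 42.6% and 42.7% after median-ratio scaling, and 43.9% and 41.4% after quantile normalization. KRT5 rose by 2.15 ± 0.036 and KRT17 fell by 1.75 ± 0.042 on the log2 scale. Of other cell types, the 4 fibroblast markers summed to 12 to 13.5 TPM in CON and 6.03 to 7.04 TPM in LF3, the 3 leukocyte markers to 327 to 339.6 TPM in CON and 45 to 49.1 TPM in LF3 and the 3 endothelial markers to 0.39 to 0.53 TPM in CON and 6.24 to 7.26 TPM in LF3. Nearly all of the leukocyte sum was CD68, a lysosomal protein, with PTPRC and CD3E under 0.2 TPM in every library, and nearly all of the endothelial sum in LF3 was CDH5, with PECAM1 and VWF under 0.4 TPM. Their part in the results above was not tested. Of the tested factor genes, 16 of 57 with annotated transcripts share at least 10% of their 50-base windows with another annotated gene, 4 of them at least 50% (EIF3C, EIF3CL, EIF4A1 and EEF1G), and the sources used here do not say how reads that fit several genes were assigned.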

How the data were processed

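Total RNA of 6 libraries was sequenced as single 50-base reads, per the labels' protocols. The authors deposited 1 table of TPM for 17280 genes; HISAT and Bowtie2, without versions, and the mouse build GRCm38.p6 are named per the submitters' processing notes, although identifiers and symbols are human. Groups were taken from the titles. From the deposited TPM, log2(TPM + 1) of the 12195 genes averaging at least 1 TPM was fitted with limma 3.58.1 (R 4.3.3) with a mean-variance trend, LF3 against CON, 3 libraries each, two-sided, and p-values were adjusted by Benjamini-Hochberg over all of them (threshold 0.05). The fit was tested on simulated data. The members and lists were chosen with earlier results of these data known. Values per library were set to be given for the largest changes of each complex, all of eIF2, eIF2B, eEF1 and eEF2, every fall and every gene whose sign turned with scaling; the ratio pairs were chosen after the values were seen. Shared sequence was counted as 50-base windows of GENCODE v29 transcripts. Alternatives were another pseudocount, filter, scaling, no trend, the replicate block and leaving out each library.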

Additional observations from a re-analysis of the deposited data

How the results depend on the processing

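Of the 58 tested factor genes, 46 kept their direction and their side of the threshold under all 13 alternatives run and 12 did not under at least 1. The counts of 39 higher and 14 lower stayed within 1.5 times under every alternative, and ran from 38 to 40 higher and 13 to 15 lower when each library was left out. The median log2 fold change was 0.55 with no filter, 0.34 after median-ratio scaling and 0.42 after quantile normalization, and 0.58 to 0.65 without single libraries. The ratio of summed TPM reversed to 0.883 after median-ratio scaling, was 1.24 without EEF1A1, and ran from 1.06 to 1.07 without single libraries. The following signs turned. With no filter, the median of the eIF1 and eIF1A group was 0.027, because EIF1AY enters it. After median-ratio scaling the values were -0.15 for the median of EIF2A and EIF2D, -0.24 for EIF1AD, -0.084 for EIF2S2, -0.0037 for EIF4E3, -0.0035 for EIF4H and -0.091 for EIF5A2. After quantile normalization they were -0.19 for the median of EIF2A and EIF2D, 0.11 for EEF1A1, -0.34 for EIF1AD, -0.040 for EIF2S2, -0.028 for EIF4E2 and -0.14 for EIF5A2. Except where construction shows it, the cause was not tested. With the replicate block the counts were 40 higher and 14 lower, the added gene being EIF5A2. The replicate numbers were not taken as pairs in the main fit. Same-numbered libraries had correlations of 0.0476, 0.106 and 0.160, computed after each gene's group mean was subtracted. Across the groups, every library except CON replicate 1 correlated best with its own number. CON replicate 1 had 0.0737 with LF3 replicate 2. Whether the numbers mark pairs cannot be told from these values. TPM holds no depth, so the precision of scarce genes such as EIF3CL, EIF4E3 and EEF1AKMT1 rests on the spread of 3 libraries a group alone.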

Other observations

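Ratios within a library do not depend on how libraries are scaled by a single factor. The ratio of the scaffold genes EIF4G1 to EIF4G3 was 4.86, 4.96 and 5.19 in CON and 11.8, 12.4 and 14.1 in LF3. That of the cap-binding protein EIF4E to the repressive relative EIF4E2 was 0.268, 0.271 and 0.21 in CON and 0.446, 0.428 and 0.418 in LF3, and that of EIF5A to EIF5A2 was 35.6, 30.9 and 37.1 in CON and 157, 138 and 171 in LF3. These 3 ratios were higher in every LF3 library than in every CON library. The ratio of EIF1 to EIF1B, both of which fell, was 13, 13.5 and 12.6 in CON and 10.6, 10.9 and 11.9 in LF3, a far smaller difference. The pairs were chosen after the values were seen, and with 3 libraries a group the exact permutation test cannot go below p = 0.1.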
